A study of Rattus norvegicus with 129 samples.

Results

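The livers of 10 male Sprague-Dawley rats were compared, 5 given phenobarbital (rats 4011 to 4015) and 5 given vehicle alone (rats 1011 to 1015). They were chosen by the rat number, sex, treatment and time in the sample titles, and are 10 of 129 rat liver arrays in the series and of 90 in its study of phenobarbital and PCN, a steroid that activates the pregnane X receptor (PXR) in rodents. Phenobarbital was given by gavage at 100 mg/kg once a day for 5 days, in 0.5% aqueous methylcellulose holding 1% Tween 80, and the liver was taken 24 h after the last dose. The vehicle rats received that suspension without the drug, on the same days, and every rat of both groups was untreated otherwise as far as the labels say. Other groups of 5 rats are used beside them: males 6 h or 24 h after 1 dose of phenobarbital and females after 5 doses. Males after 5 doses of PCN at 100 mg/kg and the vehicle group of each time and sex are used too. Rat 1003 was left out of the 6 h vehicle group, as given below. Ages were not among the labels used here, and a liver is a mixture of cell types, so fewer cells of a type and less RNA per cell cannot be told apart.

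Phenobarbital is the standard inducer of drug-metabolising enzymes in rat liver. It switches on the constitutive androstane receptor (CAR), a nuclear receptor that moves into the hepatocyte nucleus and pairs with RXR on the promoters and enhancers of target genes, and it also activates PXR. The best known targets are the Cyp2b cytochromes P450, followed by Cyp3a enzymes, conjugating enzymes such as glutathione transferases and glucuronosyltransferases, and export pumps. The same drug lowers part of the liver's glucose and fat metabolism and makes hepatocytes enlarge and divide for a short time. CAR (Nr1i3) and PXR (Nr1i2) themselves had no probe set of their own symbol here.

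Each array gave an intensity for 8799 probe sets, of which 8740 were tested. Levels below are log2(normalised intensity + 16), so that a value of 4.00 is the floor, reached where the deposited intensity was 0 or negative. A difference is phenobarbital minus vehicle on that log2 scale, and it understates the change of genes close to the floor. Its standard error (SE) is from the fit of 89 arrays, with the spread pooled over 18 groups, not from the 10 rats alone. A gene was read from its brightest probe set, levels of different genes cannot be ranked against each other, and the 10 rats are always given in the order of their numbers.

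On the 10 arrays the median deposited intensity was 17.6 to 59.9 and 21.1% to 24.0% of probe sets were at or below 0. The array of 1 rat outside these groups (vehicle male 1003 at 6 h) stood apart, with a median correlation of 0.611 with the other arrays against 0.934 to 0.954 for the rest, and was left out of the fit. Hepatocyte markers were abundant in both groups: the summed intensity of the 9 measured was 52322 to 55697 in vehicle rats and 49410 to 55346 in phenobarbital rats, while 7 of the 9 changes were below 0 and 2 members, Cps1 and Alb, were called lower. No array pair among the 10 was identical, and no batch label was given for these rats.

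After 5 doses, 224 probe sets were higher and 205 lower at an adjusted p under 0.05, or 2.56% and 2.35% of those tested. Counted by gene, 135 of 4736 were higher (2.85%) and 104 lower (2.2%), the median change over all genes being 0.00. These 2 shares are the background for every list count below. The change was at least 2-fold for 41 of the genes that rose and 27 of those that fell. The 2 groups of 5 rats did not overlap for 82 of the 135 and 45 of the 104, against 198 of all 4736 genes (4.18%). Fitted on the 10 arrays alone, 49 genes rose (1.03%) and 18 fell (0.38%): of the 135 and 104 genes, 43 and 17 passed again. Of 84 named genes that passed, 34 passed in that smaller fit and all 84 kept their direction. Putting back the array of rat 1003 ended the call of 17 of the 84 (Ephx1, Gstm1, Ugdh, Slc22a7, Cpt1a, Etfa, Eci1, Acadm, Srebf1, Baat, Fbp1, Gls2, Psma5, Foxa3, Kng2, Scarb1 and Cps1). Median scaling ended that of 19: Cyp2e1, Papss2, Slc22a7, Cpt1a, Etfa, Eci1, Acadm, Baat, Fbp1, Gls2, Ass1, Alb, Psma1, Psma5, Kng2, Itih3, Ggcx, Apoc4 and Cps1. Of the 429 changed probe sets 26 carry several symbols and 33 none, and these are not named. Where a gene has several probe sets they did not always pass together: Por, Gsr, Sult2a2, Hal, Scarb1 and Cps1 passed on 2 of 3, Sult2a1 and Eci1 on 3 of 4, Me1 on 3 of 5, and Slc22a7, Etfa and Ggcx on 1 of 2, and others are given beside their values.

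Drug-metabolising cytochromes P450 and their partners rose in part. Of 30 phase 1 enzymes measured, 9 rose and Cyp2e1 fell, with a median change of 0.17. With the 10 arrays alone, 7 rose. Cyp2b2, the phenobarbital-inducible P450 of rat liver, was at 10.00, 10.22, 8.04, 9.61 and 9.19 in the vehicle rats. In the phenobarbital rats it was at 12.73, 12.44, 12.71, 12.89 and 12.71. The lowest treated rat lay above the highest vehicle rat, and the treated rats lay closer together (SD 0.16 against 0.86). The rise was 3.29 ± 0.29 (pooled SE; n = 5 and 5), or 9.75-fold, with adjusted p = 2.3e-14 in limma. The highest adjusted p under any alternative setting was 0.004. Cyp2b15, a relative whose probe set may also bind other Cyp2b transcripts, rose from 8.01, 8.77, 8.29, 8.06 and 7.85 to 11.47, 11.11, 11.33, 11.42 and 11.43, again without overlap, by 3.16 ± 0.19 (adjusted p = 5.1e-22).

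Aldh1a1, which oxidises retinaldehyde and other aldehydes, was at 9.47, 9.68, 9.06, 9.33 and 10.21 in vehicle rats and 12.57, 12.04, 11.84, 11.56 and 12.03 in treated rats. The lowest treated rat was 1.35 above the highest vehicle rat, and the rise was 2.46 ± 0.25 (adjusted p = 2.2e-12). Ephx1, the microsomal epoxide hydrolase, was at 10.95, 11.23, 10.97, 11.12 and 11.02 and at 12.47, 12.06, 11.94, 12.29 and 12.44, a smaller rise of 1.18 ± 0.15 between groups that did not overlap (adjusted p = 6.9e-09). Por, the reductase that passes electrons to every microsomal P450, rose by 1.21 ± 0.26 (adjusted p = 0.00082), though rat 4013 at 8.62 lay inside the vehicle range and the 10 arrays alone gave adjusted p = 0.13. Alas1, which makes the first haem precursor and so limits the haem supply of the P450s, rose from 8.63, 9.32, 8.39, 7.91 and 9.68 to 10.76, 10.54, 10.63, 10.28 and 10.17. Here the groups were separate, and the change was 1.69 ± 0.25 (adjusted p = 1.1e-06 in limma). Alas1 was the 1 member of 10 haem genes that passed, beside 2.85% of all genes called higher.

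**Figure D1:**
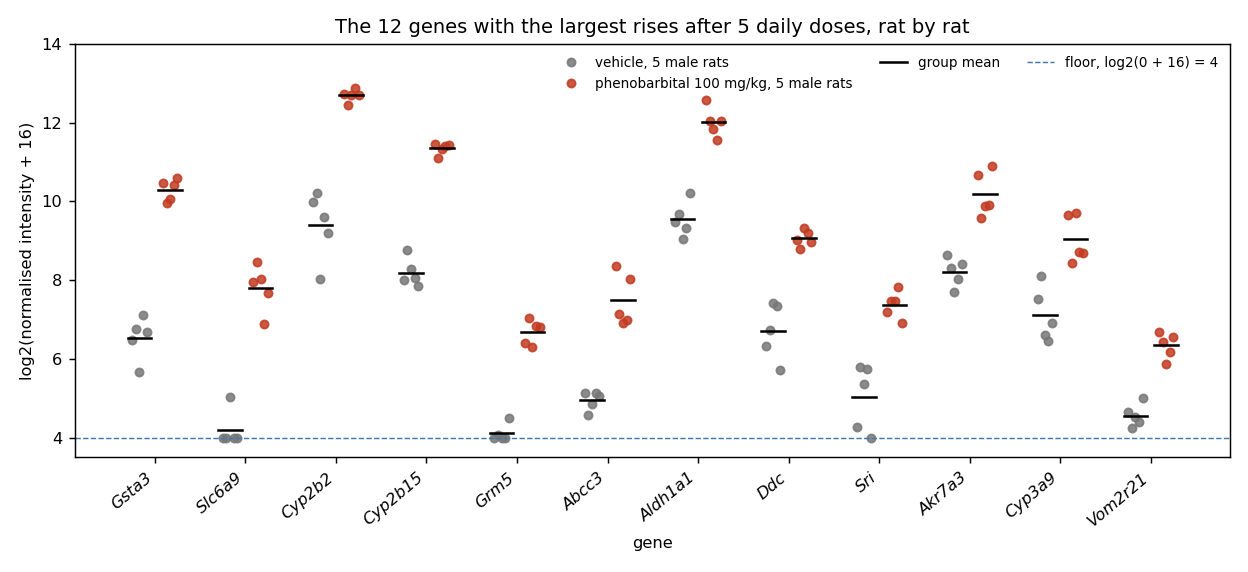
Each rat's level of the 12 genes with the largest rises, as log2(normalised intensity + 16) on the vertical axis, with 5 vehicle rats in grey, 5 phenobarbital rats in red and a bar at each group mean. The groups do not overlap for any of the 12, and Slc6a9 and Grm5 leave the floor at 4.00.

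Not every P450 under CAR or PXR rose. Cyp3a23-3a1, the main inducible steroid hydroxylase of the family, went from 11.61, 11.78, 11.17, 11.59 and 11.42 to 12.69, 12.25, 12.45, 12.86 and 12.78, a rise of 1.09 ± 0.17 without overlap (adjusted p = 3.2e-06) seen on all 4 of its probe sets. Cyp3a9, a family member normally higher in females, was at 7.53, 8.11, 6.61, 6.45 and 6.92 and 9.66, 8.45, 9.70, 8.71 and 8.69, a rise of 1.92 ± 0.48 (adjusted p = 0.0067; 0.063 on the 10 arrays alone). By contrast Cyp3a2, the male form, differed by 0.12 (95% interval -0.56 to 0.79) and Cyp3a18 by 0.19 (-0.38 to 0.76), both short of the threshold. The male-specific Cyp2c11 differed by 0.15 (-0.56 to 0.86), Cyp2c7 by -0.04 (-0.21 to 0.12) and Cyp2a1 by 0.31 (-0.02 to 0.64), and none of the 3 passed.

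Cyp2e1, which handles ethanol and acetone, is the member that fell. Vehicle rats had 12.74, 13.00, 12.49, 12.71 and 12.37 and phenobarbital rats 12.04, 11.89, 12.36, 11.64 and 12.47, so that rat 4015 lay inside the vehicle range and rat 4013 just below it. The fall was 0.58 ± 0.17 on the log2 scale (adjusted p = 0.024) and appeared on all 3 of its probe sets. It did not pass on the 10 arrays alone (adjusted p = 0.19), with median scaling, or without rat 4014 (adjusted p = 0.12) or any of 4 other rats, 1012, 1014, 4011 and 4012, left out one at a time. Cyp1a2, the constitutive dioxin-receptor target of liver, differed by -0.31 ± 0.13 (adjusted p = 0.17), and 1 of its 3 probe sets passed.

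Glutathione transferases, which attach glutathione to reactive compounds, rose in 7 of 15 measured members and fell in none, with a median change of 0.49. Gsta3 had the highest change on the scale used here, though Slc6a9 below starts at the floor and reached 6.86 with a pseudocount of 1, so the rank depends on the pseudocount. Gsta3 stood at 6.48, 6.77, 5.67, 7.11 and 6.69 in vehicle rats and at 10.46, 9.96, 10.06, 10.41 and 10.60 in phenobarbital rats, 13.5-fold higher (3.76 ± 0.35; adjusted p = 6.1e-14). The gap between the groups was wider than the whole range of either, and all 3 of its probe sets rose. Gsta4, which clears lipid aldehydes, went from 9.23, 9.40, 9.01, 9.25 and 8.58 to 10.92, 10.51, 10.42, 10.60 and 10.38 (1.47 ± 0.14; adjusted p = 2.1e-13).

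Gstm1, one of the most abundant liver transferases, rose by 0.88 ± 0.14 (adjusted p = 4.1e-06), the microsomal Mgst2 by 0.75 ± 0.12 (adjusted p = 6.9e-06) and Gstt1 by 0.93 ± 0.21 (adjusted p = 0.0025). Their groups did not overlap. Gsta1 and Gstm2 also passed. Gstp1, which marks preneoplastic foci in rat liver, differed by -0.17 (-0.61 to 0.27) and did not pass. With the 10 arrays alone, 4 of the 15 passed.

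Genes of the antioxidant programme run by NRF2 were the list with most members called: 11 of 23 rose and none fell, with a median of 0.31. The list overlaps others, since Abcc2, Abcc3 and Ephx1 are on it too, and 6 members passed on the 10 arrays alone. Akr7a3, an aldehyde reductase that acts on aflatoxin dialdehyde, was at 8.63, 8.31, 7.71, 8.02 and 8.41 and rose to 10.68, 9.57, 9.90, 9.90 and 10.90. Rats 4011 and 4015 were the highest, no treated rat reached down to the vehicle range, and the rise was 1.97 ± 0.29 (adjusted p = 7.3e-07). Nqo1, a quinone reductase, moved from 7.34, 7.85, 6.86, 7.38 and 6.96 to 9.31, 8.54, 8.97, 9.21 and 8.90, a rise of 1.71 ± 0.40 (adjusted p = 0.0034) on 1 of its 2 probe sets. Gsr, which regenerates reduced glutathione, rose by 1.46 ± 0.34 (adjusted p = 0.0027; 0.096 on the 10 arrays alone). Me1, which supplies cytosolic NADPH, went from 6.71, 6.77, 7.04, 6.64 and 6.98 to 7.72, 7.93, 8.13, 9.06 and 8.09, rat 4014 being the highest and the groups separate (1.36 ± 0.24; adjusted p = 3.5e-05). The transketolase Tkt, the transaldolase Taldo1, the peroxiredoxin Prdx1 and Akr7a2 made up the rest. Nqo1 was also the 1 riser among 6 measured targets of the dioxin receptor.

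Promoters are shown for the largest riser among the P450s and for 4 conjugation or NRF2-list genes that rose, because the last 4 are the risers among the named genes whose promoter holds the core of the antioxidant response element, TGACNNNGC. The sequences are RefSeq's, 250 bases before to 50 after the annotated start in build GRCr8, read 5′ to 3′ along the gene's strand, and 78 of 94 named genes had one. Capitals mark TGACNNNGC or the nuclear receptor half-site AGNTCA, searched on both strands, and the promoter of Cyp2b2 holds neither. Positions are chr1:90722031-90722330 (plus strand) for Cyp2b2, chr9:31154739-31155038 (plus) for Gsta3, chr8:96540195-96540494 (minus) for Me1, chr14:43202268-43202567 (plus) for Ugdh and chr1:252613625-252613924 (plus) for Abcc2.
Cyp2b2: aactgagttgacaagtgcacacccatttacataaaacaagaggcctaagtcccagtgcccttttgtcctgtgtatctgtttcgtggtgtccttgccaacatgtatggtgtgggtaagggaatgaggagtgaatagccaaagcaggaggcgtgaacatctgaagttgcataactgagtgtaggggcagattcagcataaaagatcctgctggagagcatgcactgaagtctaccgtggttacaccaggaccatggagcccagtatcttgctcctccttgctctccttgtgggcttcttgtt
Gsta3: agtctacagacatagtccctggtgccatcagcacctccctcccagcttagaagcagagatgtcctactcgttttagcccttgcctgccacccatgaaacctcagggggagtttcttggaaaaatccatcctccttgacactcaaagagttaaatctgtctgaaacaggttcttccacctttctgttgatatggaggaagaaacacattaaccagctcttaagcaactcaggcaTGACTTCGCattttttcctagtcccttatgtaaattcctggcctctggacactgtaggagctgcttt
Me1: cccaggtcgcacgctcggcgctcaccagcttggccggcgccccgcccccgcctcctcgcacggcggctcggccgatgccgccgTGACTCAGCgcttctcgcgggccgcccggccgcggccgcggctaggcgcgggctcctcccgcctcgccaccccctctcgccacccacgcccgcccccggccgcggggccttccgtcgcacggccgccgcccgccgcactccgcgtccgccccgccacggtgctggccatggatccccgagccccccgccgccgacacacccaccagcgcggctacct
Ugdh: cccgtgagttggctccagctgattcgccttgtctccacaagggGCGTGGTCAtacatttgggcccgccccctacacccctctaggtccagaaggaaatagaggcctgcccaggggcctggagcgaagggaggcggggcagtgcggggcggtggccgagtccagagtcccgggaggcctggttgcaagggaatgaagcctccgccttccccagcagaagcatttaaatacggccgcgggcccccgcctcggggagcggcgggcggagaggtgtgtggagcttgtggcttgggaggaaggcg
Abcc2: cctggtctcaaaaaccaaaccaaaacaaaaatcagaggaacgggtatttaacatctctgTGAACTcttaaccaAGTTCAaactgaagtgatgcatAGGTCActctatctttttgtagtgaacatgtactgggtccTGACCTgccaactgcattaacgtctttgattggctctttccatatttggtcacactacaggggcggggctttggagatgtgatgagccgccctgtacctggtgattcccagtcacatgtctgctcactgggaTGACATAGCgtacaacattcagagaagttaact
The match in Gsta3 begins 17 bases before the start and reads TGACTTCGC, and that in Me1 begins 167 bases before and reads TGACTCAGC. Across genes the share was close to the background: TGACNNNGC was in 18 of 113 promoters of genes that rose (15.9%), 8 of 84 of genes that fell (9.52%) and 14.2% of all 3879 array genes with a promoter. The half-site was in 50 of the 113 (44.2%), 41 of the 84 (48.8%) and 40.6% of array genes. A pair of half-sites in 1 direction with 4 bases between them, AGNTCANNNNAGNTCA, was in none of the 113 and none of the 84 and in 2 of the 3879. Such a match is a string of letters in this window only, and distal enhancers were not searched.

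Glucuronosyltransferases and the supply of their sugar donor rose in 3 of 10 measured members and fell in none, with a median of 0.30. Ugt2b1 was at 9.59, 9.30, 8.83, 9.67 and 9.03 in vehicle rats and 11.13, 11.12, 10.91, 10.95 and 11.02 in phenobarbital rats. The treated rats spanned 0.22 and above every vehicle rat (1.74 ± 0.20; adjusted p = 8.7e-10). Ugdh, which makes UDP-glucuronate, rose by 0.62 ± 0.15 (adjusted p = 0.0054) on 1 of 2 probe sets. Ugt2b37 rose by 0.91 ± 0.22 (adjusted p = 0.0048), a call lost on the 10 arrays alone (adjusted p = 0.16) and without vehicle rat 1012.

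In a list of sulfotransferases, enzymes of sulphate supply and acetyl and methyl transferases, 3 sulfotransferases and Papss2 fell among 13 measured members and none rose (median -0.26). Sult2a1, the hydroxysteroid and bile acid sulfotransferase, was at 11.45, 11.97, 12.21, 12.37 and 12.10 in vehicle rats and 10.04, 11.31, 11.53, 10.57 and 10.94 in phenobarbital rats. Rat 4011 was the lowest, while rat 4013 at 11.53 lay above vehicle rat 1011. The fall was 1.14 ± 0.15 (adjusted p = 3.1e-08). Sult2a2 fell by 1.03 ± 0.21 (adjusted p = 0.00053) and Sult2a6 by 0.84 ± 0.14 (adjusted p = 1.9e-05), near-identical relatives whose probe sets may share transcripts. Papss2, which makes the sulphate donor, fell by 0.62 ± 0.15 (adjusted p = 0.0052; not passed with median scaling). None of the 4 passed on the 10 arrays alone, where Sult2a1 had adjusted p = 0.13.

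Among 17 hepatic transporters 3 rose and 1 fell. Abcc3, the basolateral pump that returns conjugates to the blood, went from 5.14, 4.58, 4.85, 5.13 and 5.05 to 8.37, 7.14, 6.92, 7.00 and 8.02. Rats 4011 and 4015 were the highest, and the rise was 2.54 ± 0.26, or 5.82-fold (adjusted p = 8.7e-12). Abcc2, the pump of the bile canaliculus, rose by 0.85 ± 0.18 (adjusted p = 0.00056) without overlap, with adjusted p = 0.089 on the 10 arrays alone. Slco1a4, an organic anion uptake carrier, was at 10.73, 10.32, 10.00, 9.96 and 9.41 and 11.13, 10.60, 11.14, 10.69 and 10.44, overlapping groups with a rise of 0.72 ± 0.21 (adjusted p = 0.031). That call was lost on leaving out any of 5 of the 10 rats (1013, 1014, 1015, 4011 and 4013). Slc22a7, an organic anion carrier, fell by 0.52 ± 0.14 (adjusted p = 0.02), a call lost with median scaling and without rat 1012, 1013, 4011, 4013 or 4014.

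Several of the largest rises were in genes not usually listed as drug-metabolising. Slc6a9, a glycine transporter best known from brain, was at 4.00, 4.00, 5.04, 4.00 and 4.00 in vehicle rats, 4 of them at the floor, and at 7.97, 8.47, 8.02, 6.90 and 7.67 in treated rats. Grm5, a metabotropic glutamate receptor, was at 4.00, 4.08, 4.00, 4.00 and 4.51 and then 6.40, 7.05, 6.30, 6.83 and 6.81. Both were read from 1 probe set, and the rises of 3.60 ± 0.45 (adjusted p = 7.4e-09) and 2.56 ± 0.30 (adjusted p = 7.1e-10) start from the floor. Ddc, the aromatic amino acid decarboxylase, went from 6.32, 6.74, 7.41, 7.35 and 5.72 to 9.03, 8.80, 9.32, 9.19 and 8.98, a rise of 2.36 ± 0.49 with a tight treated group (adjusted p = 0.00067). Sri, a calcium-binding protein, rose by 2.34 ± 0.39 (adjusted p = 1.6e-05) and Vom2r21, from the vomeronasal receptor family, by 1.78 ± 0.35 (adjusted p = 0.00029), each without overlap.

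Among the genes with the largest falls on this scale most were dim. Vdr, the vitamin D receptor, was at 7.37, 7.04, 7.28, 7.27 and 7.42 in vehicle rats and 5.18, 5.30, 4.78, 4.13 and 4.00 in phenobarbital rats, a change of -2.60 ± 0.35 (adjusted p = 9.4e-08). The vehicle rats spanned 0.37 and all lay far above the treated rats. Dusp6, the phosphatase that switches off ERK, went from 6.39, 7.14, 6.85, 7.44 and 6.93 to 5.86, 5.69, 5.40, 5.39 and 5.12, separate groups and a fall of 1.46 ± 0.31 (adjusted p = 0.0011) on 1 of 2 probe sets. Foxa3, a hepatocyte transcription factor, fell by 0.94 ± 0.18 (adjusted p = 0.00013 in limma). Vdr and Foxa3 were the 2 of 34 nuclear receptors and partners that changed, beside 2.2% of all genes called lower. Foxa3 did not pass on the 10 arrays alone (adjusted p = 0.073) or with the array of rat 1003.

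For Ntrk3, Tgfbr1, Iqsec1, Ap3m2 and Kcnj11 most treated rats were at the floor. The size of their fall is not known beyond it and cannot be ranked against that of Vdr. Over the settings Irf3 ranged from -4.78 to -1.37, Spink1 from -2.78 to -0.90 and Bin1 from -2.42 to -0.93. Cyp4a1, by contrast, was at 7.48 or above in every treated rat. With a pseudocount of 1, Iqsec1 was at -5.45, Ntrk3 at -5.29 and Tgfbr1 at -5.14, against -4.33 for Vdr. Ntrk3, a neurotrophin receptor, was between 5.56 and 6.03 in vehicle rats and at 4.00 in all 5 treated rats (-1.77 ± 0.34; adjusted p = 0.00017). Tgfbr1, a TGF-beta receptor, was at the floor in 4 of 5 (-1.70 ± 0.44; adjusted p = 0.01), Iqsec1, an exchange factor for ARF proteins, also in 4 (-2.33 ± 0.51; adjusted p = 0.0015) and the adaptor subunit Ap3m2 in 3 (-1.76 ± 0.41; adjusted p = 0.0033). For Ntrk3, Tgfbr1, Ap3m2, Bin1, Irf3 and Kcnj11 only 1 of 2 probe sets passed.

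Crlf2, a cytokine receptor chain, fell by 1.66 ± 0.35 (adjusted p = 0.00082) and Bin1, a membrane-bending protein, by 1.51 ± 0.30 (adjusted p = 0.00043), each without overlap but with adjusted p of 0.063 and 0.18 on the 10 arrays alone. Irf3, an interferon response factor, fell by 2.42 ± 0.68, the potassium channel Kcnj11 by 1.70 ± 0.51 and the trypsin inhibitor Spink1 by 1.60 ± 0.46. For these 3 the groups overlapped, and each call was lost on leaving out any of 5 or 6 of the 10 rats. Without rat 4014, for instance, their adjusted p was 0.078, 0.079 and 0.064. The other rats were 1012, 1013, 1014, 4011 and 4015 for Irf3, 1011, 1012, 4011, 4013 and 4015 for Kcnj11, and 1011, 1012, 4011 and 4013 for Spink1.

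**Figure D2:**
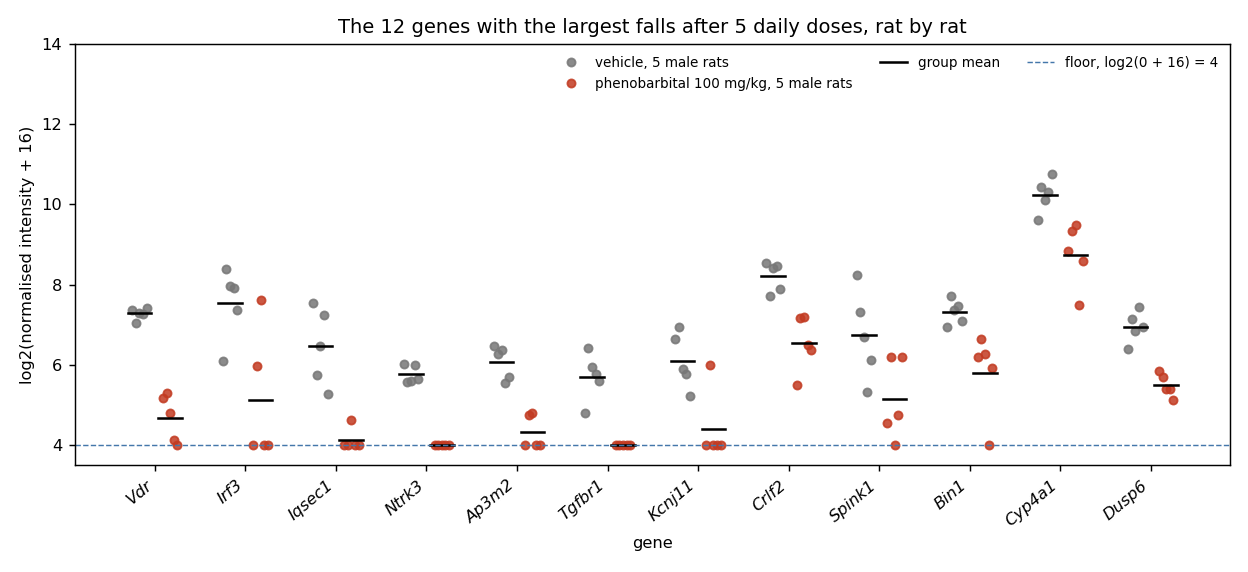
Each rat's level of the 12 genes with the largest falls, as log2(normalised intensity + 16) on the vertical axis, with vehicle rats in grey, phenobarbital rats in red and a bar at each group mean. Ntrk3 is at the floor of 4.00 in all 5 treated rats, while Irf3, Kcnj11 and Spink1 overlap between groups.

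Genes of amino acid breakdown and the urea cycle, largely enzymes of periportal hepatocytes, fell in 9 of 29 measured members and rose in none (median -0.23). On the 10 arrays alone 3 passed and with median scaling 5. Hal, which starts histidine breakdown, was at 10.13, 10.87, 10.22, 10.54 and 10.48 in vehicle rats and 9.38, 9.42, 9.47, 9.29 and 9.45 in phenobarbital rats. Treated rats spanned 0.18, all below the vehicle group (-1.05 ± 0.20; adjusted p = 0.00021). Glul, glutamine synthetase of the hepatocytes next to the central vein, went from 11.25, 10.65, 10.65, 10.76 and 10.47 to 9.84, 9.95, 9.97, 9.78 and 9.62, without overlap and on all 4 of its probe sets (-0.92 ± 0.16; adjusted p = 1.9e-05). Ass1, the argininosuccinate synthase of the urea cycle, fell by 0.54 ± 0.14 (adjusted p = 0.01), without overlap, and was not called with median scaling.

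Oat, which breaks down ornithine, fell by 0.94 ± 0.23 (adjusted p = 0.0072) and Gnmt, which consumes S-adenosylmethionine, by 0.91 ± 0.23 (adjusted p = 0.0067), both without overlap. The lyase Asl fell by 0.86 ± 0.22 (adjusted p = 0.0089), a call lost without vehicle rat 1012 or without rat 4014 (adjusted p = 0.088). The glutaminase Gls2 fell by 0.60 ± 0.18 (adjusted p = 0.036) and lost its call without any of 6 rats, 1012, 1013, 1014, 4011, 4012 and 4015. Cps1, the entry enzyme of the urea cycle, fell by 0.24 ± 0.06 (adjusted p = 0.0066), but not with median scaling, and Kmo of tryptophan breakdown was the ninth.

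By position in the lobule, 7 of 17 periportal genes were called lower and none higher (median -0.38). They were Alb, which is no evidence of a fall as set out below, Fbp1 and 5 urea or amino acid genes already named. With the 10 arrays alone or with median scaling, 2 of the 17 passed. Of 16 pericentral genes 2 rose (Aldh1a1 and Gstm1) and 3 fell (Oat, Glul and Cyp2e1), so that this list held both directions. Fbp1 of glucose production fell by 0.28 ± 0.07 (adjusted p = 0.01), a call lost without rat 1012 or 4014. Alb has the highest normalised value on 87 of the 89 arrays fitted, where quantile normalisation fixes the value. It was at 13.57 in all 5 vehicle rats and 3 treated rats and at 13.28 in rats 4011 and 4014, where another probe set was brighter. Its call (-0.11 ± 0.02; adjusted p = 0.00074) rests on those 2 arrays, was lost with median scaling and on the 10 arrays alone, and appeared on 1 of its 4 probe sets, so no change of Alb is read from it.

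Glucose metabolism changed in 3 of 22 measured members. Pc, pyruvate carboxylase, went from 9.54, 9.36, 9.68, 9.05 and 9.43 to 8.71, 8.87, 8.61, 8.52 and 9.02, without overlap (-0.67 ± 0.12; adjusted p = 7.2e-05). Pfkfb1, which sets the level of a regulatory fructose bisphosphate in liver, rose by 1.22 ± 0.24 (adjusted p = 0.00034 in limma) on 2 of 4 probe sets. It went from 6.62, 6.09, 7.10, 6.00 and 6.49 to 7.54, 7.71, 7.37, 8.26 and 7.53. Neither passed on the 10 arrays alone, at adjusted p of 0.059 and 0.055.

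Fatty acid oxidation genes were lower in part, and rat 4014 stood apart from the other treated rats in several of them. Of 21 mitochondrial oxidation genes 4 fell and 1 rose (median -0.28), and of 21 PPARA and peroxisomal genes 2 fell. Cpt1a is counted in both lists. Without rat 4014 the falls were 1 and 1, and on the 10 arrays alone none passed in either list. Cyp4a1, a fatty acid hydroxylase controlled by PPARA, was at 9.62, 10.43, 10.10, 10.30 and 10.76 in vehicle rats and 8.84, 9.33, 9.48, 7.48 and 8.58 in phenobarbital rats. Every treated rat was below every vehicle rat, rat 4014 the lowest (-1.50 ± 0.29; adjusted p = 0.00026), and without it the fall was -1.19 (adjusted p = 0.0076). Cpt1a, the gate of fatty acids into mitochondria, was at 10.84, 11.01, 10.99, 10.98 and 11.04 and 10.28, 10.83, 10.71, 7.72 and 10.25. The fall of 1.01 ± 0.32 (adjusted p = 0.047) became -0.46 (adjusted p = 0.48) without rat 4014, and the call was also lost without rat 4011 or without any one of the 5 vehicle rats.

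Eci1, an isomerase for unsaturated fatty acids, was at 10.94, 12.04, 11.74, 11.39 and 12.07 and 10.87, 11.27, 10.97, 9.10 and 10.34. Its fall of 1.13 ± 0.35 (adjusted p = 0.042) became -0.78 (adjusted p = 0.25) without rat 4014. That call was likewise lost without rat 1012, 1013, 1014, 1015 or 4015. Decr1, a dienoyl-CoA reductase, fell by 0.57 ± 0.13 (adjusted p = 0.0018), with -0.40 (adjusted p = 0.042) without rat 4014, and Acadm, the medium-chain dehydrogenase, by 0.37 ± 0.10 (adjusted p = 0.015), not called without rat 4011 or 4014. Etfa, the electron acceptor of the acyl-CoA dehydrogenases, rose by 0.27 ± 0.08 (adjusted p = 0.035), not called without any of 6 rats (1012, 1014, 1015, 4013, 4014 and 4015).

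**Figure D3:**
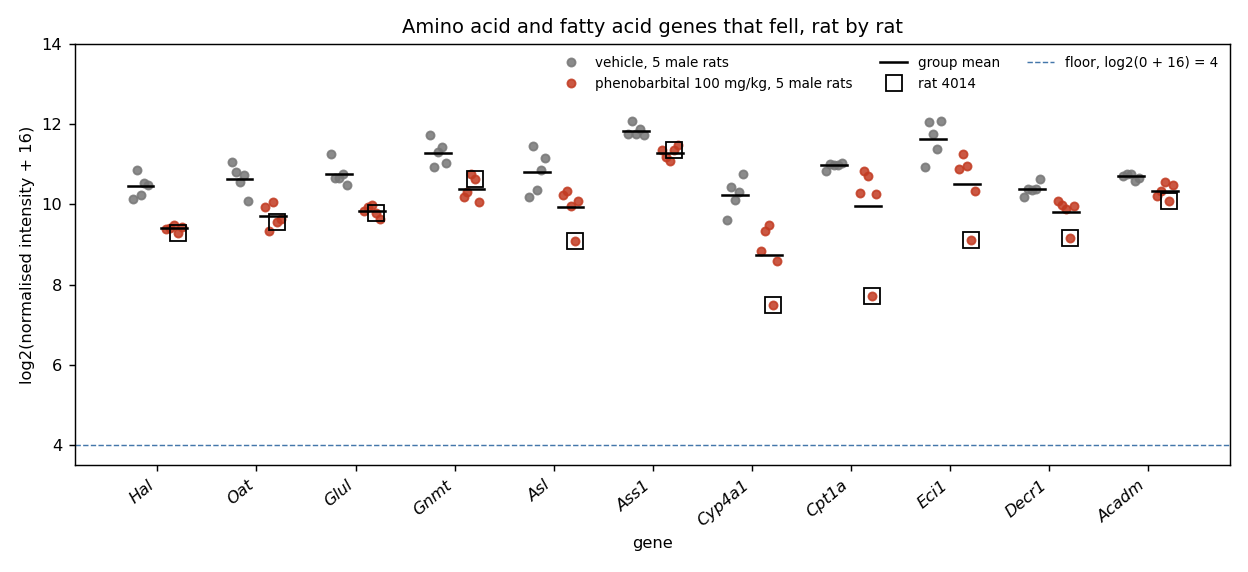
Each rat's level of amino acid genes (Hal to Ass1) and fatty acid genes (Cyp4a1 to Acadm) that fell, as log2(normalised intensity + 16), with vehicle rats in grey, phenobarbital rats in red, group means as bars and rat 4014 boxed. Rat 4014 is far below the other treated rats in Cpt1a and Eci1, and also the lowest in Cyp4a1, Decr1 and, narrowly, Hal. It is among them in Glul and Ass1.

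Cholesterol synthesis had a raised median of 0.54 over 15 measured genes, 14 of them above 0, yet 2 passed and none on the 10 arrays alone. Msmo1 rose by 1.28 ± 0.38 (adjusted p = 0.032) and Cyp51 by 1.02 ± 0.29 (adjusted p = 0.023), both sterol demethylation enzymes. Cyp51 passed on 1 of its 5 probe sets, which ranged down to 0.11, and Msmo1 on both. For Cyp51 the vehicle rats were at 9.09, 7.48, 8.80, 9.21 and 7.47 and the treated rats at 9.83, 9.45, 9.80, 9.53 and 8.54. Vehicle rats 1012 and 1015 were the lowest of the group in both genes, and each of the 2 calls was lost without rat 1012, 1015, 4011, 4013 or 4014. Srebf1, the transcription factor of fat synthesis, fell by 1.35 ± 0.40 (adjusted p = 0.031), with rat 4014 the highest treated rat, and its call was lost without any of 6 rats, 1011 to 1014, 4011 and 4013.

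Bile acid synthesis changed in 1 of 13 genes, beside 2.2% of all genes called lower. Baat, which conjugates bile acids, fell by 0.32 ± 0.09 (adjusted p = 0.025 in limma). That call was lost with median scaling and without rat 1012, 1013 or 4011. Cyp7a1, the rate-limiting enzyme, spread from 4.00 to 8.82 in vehicle rats and from 4.79 to 7.37 in treated rats, a difference of 0.02 with an interval of -1.32 to 1.37. Of 14 apolipoprotein and lipoprotein genes 3 fell. Lcat, which esterifies plasma cholesterol, went from 11.17, 11.34, 11.24, 11.25 and 11.38 to 10.61, 10.89, 10.93, 10.61 and 10.81 (-0.51 ± 0.07; adjusted p = 3e-07), Scarb1, the HDL receptor, fell by 0.75 ± 0.19 (adjusted p = 0.0072) and Apoc4 by 0.40 ± 0.12 (adjusted p = 0.033). Lcat passed on the 10 arrays alone, and Apoc4 lost its call without any of 6 rats, 1011, 1012, 1014, 4011, 4013 and 4014.

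Some genes of growth and stress lists passed, beside 2.85% of all genes called higher and 2.2% called lower. Of 30 cell cycle genes 2 rose: Stmn1, a microtubule regulator of dividing cells, from 6.46, 6.37, 6.63, 6.25 and 6.04 to 7.92, 7.27, 7.32, 7.23 and 7.20 (1.04 ± 0.24; adjusted p = 0.0026), and Cdk1, the mitotic kinase, from 4.00, 4.00, 4.45, 4.15 and 4.00 to 5.76, 5.50, 4.78, 4.99 and 4.61 (1.01 ± 0.25; adjusted p = 0.0072). Cdk1 left the floor with no overlap but was not called without rat 4011. Ccnd1 differed by 0.04 (-0.25 to 0.33) on its brightest probe set, while 2 of its 5 probe sets fell, and Ccng1 by 0.01 (-0.39 to 0.42). Mdm2, the p53 antagonist, rose by 0.86 ± 0.21 (adjusted p = 0.0043) on 1 of 4 probe sets, the 1 member called of 9 damage genes. Of 24 proteasome genes 22 had a change above 0 (median 0.23) and 3 subunits were called higher, Psmb9, Psma1 and Psma5, by 0.73, 0.48 and 0.39 (adjusted p = 0.0065, 0.018 and 0.045). Each passed on 1 probe set, of 2, 2 and 3, and another probe set of Psma5 was at -0.33. Psmb9 lost its call without rat 1012, Psma1 without 4011, and Psma5 without any of 7 rats (1011, 1012, 1013, 1015, 4011, 4013 and 4015). In the endoplasmic reticulum list 15 of 20 changes were above 0 and Pdia6 was called (0.40 ± 0.12; adjusted p = 0.026), lost without rat 1012, 1014, 4011 or 4014, and with median scaling 4 were. No heat shock gene of 13 and no clock gene of 9 passed in limma. Dbp, a clock output factor singled out after its values were seen, was at 8.78, 6.32, 8.71, 6.16 and 4.00 in vehicle rats and 4.39, 4.00, 4.00, 4.00 and 5.56 in treated rats, a difference of -2.40 (95% interval -4.18 to -0.62; adjusted p = 0.11).

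Plasma protein genes changed in some members, beside 2.85% of all genes called higher and 2.2% called lower. Of 25 acute phase genes 3 were called lower, Alb as above, the inter-alpha inhibitor chain Itih3 by 0.42 ± 0.09 (adjusted p = 0.00054) and the kininogen Kng2 by 0.42 ± 0.09 (adjusted p = 0.0014), and with median scaling none passed. Of 21 complement and coagulation genes C4bpb fell by 0.66 ± 0.12 (adjusted p = 4.7e-05). Pros1, the anticoagulant protein S, rose by 0.41 ± 0.10 (adjusted p = 0.008) and the carboxylase Ggcx, which needs vitamin K, by 0.37 ± 0.10 (adjusted p = 0.02), the last lost without rat 1011, 1015 or 4014. On the 10 arrays alone these 3 had adjusted p of 0.18, 0.14 and 0.18, and no member passed. No member of the male-biased list of 10 was called, and of 14 female-biased genes 2 rose (Abcc3, Cyp3a9) and 2 fell (Sult2a1, Sult2a2). Among 13 thyroid hormone genes Me1 and Slco1a4 rose, and the 1 call of a lower level was that of Alb.

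Of the markers of other liver cells 1 passed, in the bile duct list. None of 10 macrophage, 6 endothelial, 16 stellate or fibroblast, 13 lymphocyte and 7 blood cell markers passed. Summed intensities overlapped, from 3414 to 3909 in vehicle and 3375 to 4113 in treated rats for macrophages, and 4844 to 8739 and 2870 to 7867 for blood. The endothelial marker Flt1, a receptor of vascular growth factors singled out after its values were seen, was at 6.46, 6.50, 6.38, 6.50 and 6.45 in vehicle rats and 7.41, 7.06, 7.03, 7.16 and 7.22 in treated rats. Its groups did not overlap, and the change of 0.72 ± 0.23 had adjusted p = 0.052, and 0.0021 on the 10 arrays alone. One of 7 bile duct markers rose, the adhesion molecule Epcam, from 6.17, 6.30, 6.30, 6.02 and 6.11 to 6.99, 6.46, 6.88, 6.96 and 6.87 (0.65 ± 0.14; adjusted p = 0.0011), also without overlap. The part of these markers in the other results was not tested.

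**Figure D4:**
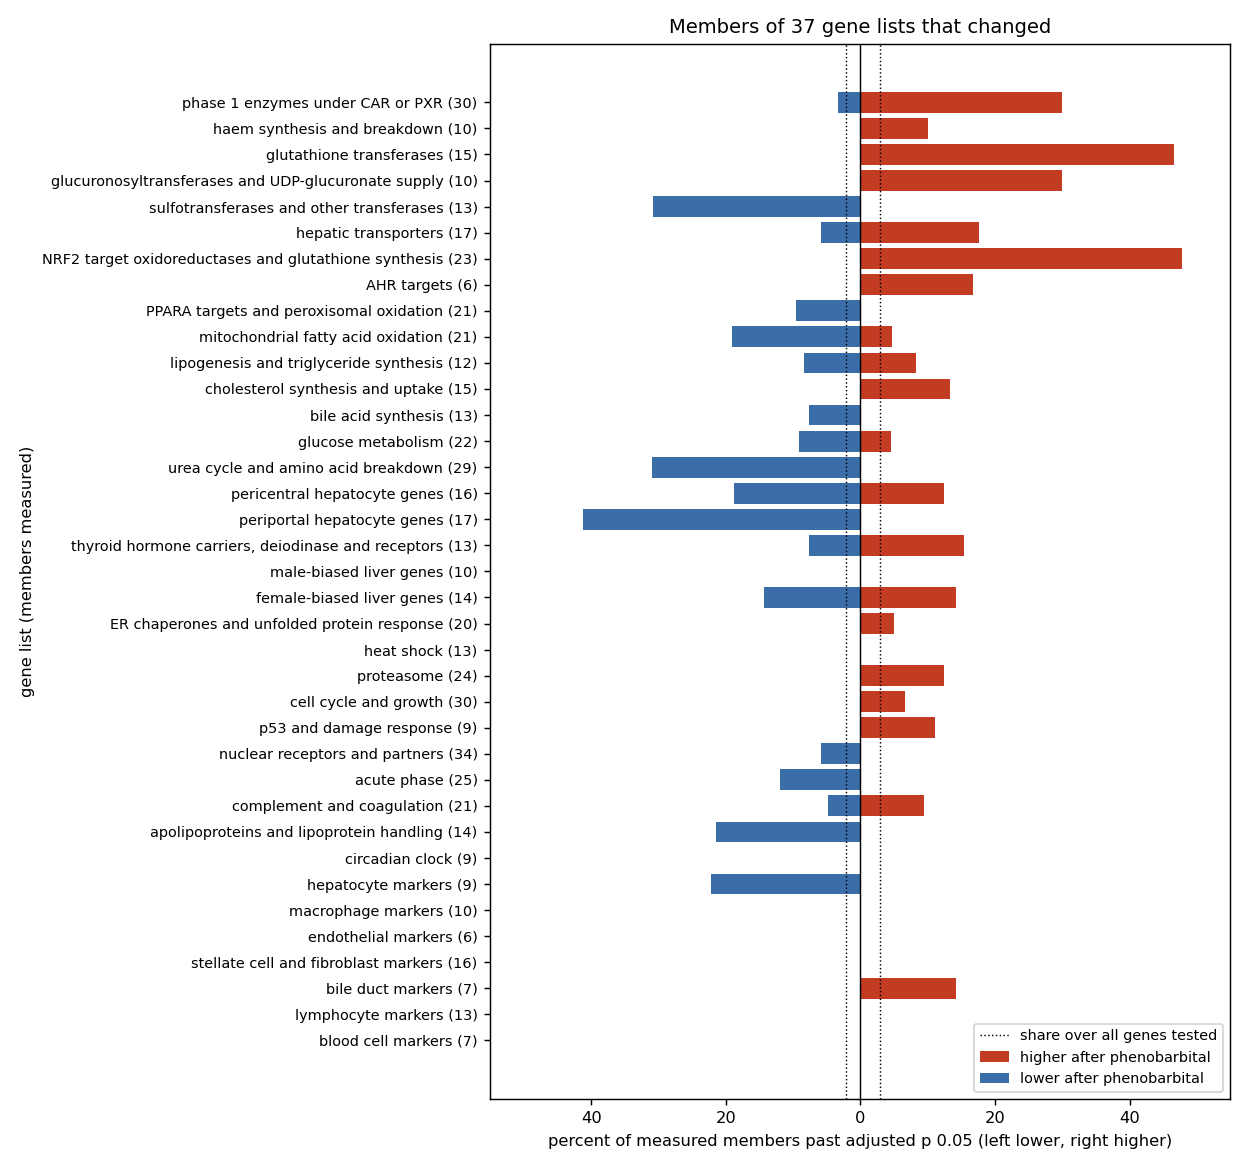
Share of the measured members of each of 37 gene lists that were higher (red, right) or lower (blue, left) after phenobarbital at an adjusted p under 0.05, in percent, with the number measured in brackets and dotted lines at the shares over all genes, 2.85% higher and 2.2% lower. The NRF2 and glutathione transferase lists reach furthest to the right and the periportal list furthest to the left, and the lists share members.

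Separate rats showed which changes were there after 1 dose. In the males killed 24 h after a single dose, against their own vehicle group, 63 genes were higher (1.33%) and 48 lower (1.01%). Of the 135 genes higher at 5 days, 118 had the same sign at 24 h and 36 were called higher. Of the 104 lower, 86 had the same sign, 10 were called lower and 1, Eci1, was called higher. At 6 h the vehicle group was fitted without rat 1003. There 11 of the 135 and 3 of the 104 were already called the same way, and none the opposite way.

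Cyp2b2, Cyp2b15 and Slc6a9 had the highest changes among genes called at 6 h. Cyp2b2 rose by 3.84 at 6 h, 3.76 at 24 h and 3.29 at 5 days, Cyp2b15 by 3.08, 3.47 and 3.16, and Slc6a9 by 3.13, 4.10 and 3.60. Grm5, Ugt2b1, Alas1 and Cyp3a23-3a1 had likewise passed at 6 h. Gsta3 was 0.78 at 6 h (adjusted p = 0.51), 2.71 at 24 h and 3.76 at 5 days, and Gsta4 was -0.02, 0.69 and 1.47. The difference between 5 days and 24 h for Gsta3 was 1.05 with an interval of 0.08 to 2.02, and it did not pass (adjusted p = 0.69).

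Tested as a difference of effects, 5 genes had a higher change at 5 days than at 24 h (0.106% of genes) and 4 a lower one (0.0845%). Abcc3 was -0.05 at 6 h, 0.88 at 24 h and 2.54 at 5 days, a difference of 1.66 (adjusted p = 0.02). Sult2a1 was 0.01 at 24 h and -1.14 at 5 days (-1.15; adjusted p = 0.0067). Cyp4a1 went from 0.49 to -1.50 (-1.99; adjusted p = 0.0089), Eci1 from 1.27 to -1.13 (-2.40; adjusted p = 0.0078) and Decr1 from 0.30 to -0.57 (-0.87; adjusted p = 0.0078). Without rat 4014 the last 3 had adjusted p of 0.062, 0.055 and 0.057, and with only the 4 groups compared none of the 9 genes passed. With the array of rat 1003 the differences of Abcc3, Cyp4a1, Eci1, Decr1 and Clrn3 had adjusted p of 0.25, 0.30, 0.27, 0.053 and 0.054, and with median scaling that of Sult2a1 had 0.087. The remaining 4 were picked out after their values were seen: Lpl, lipoprotein lipase, from -0.09 to 1.38, the lactate dehydrogenase Ldhd from -0.23 to 0.82, Clrn3 from -0.27 to 0.37, and Pklr, the liver pyruvate kinase, from -1.57 to 0.11, where the 5-day change did not pass. At 5 days Clrn3 was at the floor in all 5 vehicle rats and in 3 treated rats, so its 0.37 rests on rats 4014 and 4015. Leaving out 1 array at a time, Sult2a1 and Ldhd passed every time. Abcc3 was lost without rat 1009, 4011 or 4015, Lpl without 1009, 4011 or 4014, and Pklr without 1008, 1015 or 4014. Clrn3 was lost without any of 9 rats, 1008, 1010, 1013, 1014, 1015, 4007, 4008, 4014 and 4015.

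In females given the same 5 doses, 72 genes were higher (1.52%) and 51 lower (1.08%) than in vehicle females. Of the 135 genes higher in males 120 had the same sign in females and 43 were called, and of the 104 lower ones 84 and 17. Only 3 genes had a higher change in females than in males (0.0633%) and 3 a lower one (0.0633%) when the difference itself was tested. Cyp3a2, the male form, was 2.70 in females and 0.12 in males (2.58; adjusted p = 0.0022). Sult2a1 was -0.22 in females (0.92; adjusted p = 0.045), a difference that passed without rat 1011, 1511, 4012 or 4013 and was lost on leaving out any other of the 20 rats. Scd2, a desaturase, was 2.31 in females and -0.12 in males, Tbce, a tubulin cofactor, -0.09 and 0.66, Grk4 -1.48 and 1.10, and Suclg1 -0.28 and 0.22, all 4 picked out after their values were seen. For Grk4, 4 of the 5 vehicle males were at the floor and the male groups overlapped. Leaving out 1 array at a time, Scd2 and Cyp3a2 passed every time, Grk4 was lost without rat 1015 or 1514, Tbce without 1015, 1513, 4013 or 4515, and Suclg1 without 1014, 1513, 1514, 4011 or 4511. With the array of rat 1003 in the fit the differences of Cyp3a2, Sult2a1 and Suclg1 had adjusted p of 0.39, 0.094 and 0.35. With median scaling those of Sult2a1, Suclg1 and Tbce had 0.40, 0.40 and 0.18, with a pseudocount of 1 those of Sult2a1 and Scd2 had 0.058 and 0.11, and with only the 4 groups none passed.

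PCN, given at the same dose to males for 5 days, was set against phenobarbital directly, without the vehicle rats. Phenobarbital livers were higher in 78 genes (1.65%) and lower in 80 (1.69%). The changes of each drug against vehicle, quoted next, use the same 5 vehicle rats. Slc6a9 was 3.60 with phenobarbital and 0.39 with PCN (difference 3.20; adjusted p = 4.1e-07), Grm5 2.56 and 0.48 (2.08; adjusted p = 7e-07) and Ddc 2.36 and -1.36 (3.72; adjusted p = 5.8e-08). Cyp2b15 was 3.16 and 1.60 (1.56; adjusted p = 1.1e-08), while the difference for Cyp2b2, 0.81 with an interval of 0.22 to 1.39, did not pass (adjusted p = 0.13). Abcc3 was higher by 1.81 (adjusted p = 1e-06) and Gstt1 by 0.97 (adjusted p = 0.0026) with phenobarbital.

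The PXR targets Slco1a4 and Cyp3a18 were higher with PCN. Slco1a4 was 0.72 with phenobarbital and 1.81 with PCN (-1.10; adjusted p = 0.00039), and Cyp3a18 0.19 and 1.33 (-1.14; adjusted p = 0.011). For 3 further rises the difference did not pass: it was 0.06 (-0.28 to 0.40) for Cyp3a23-3a1, -0.09 (-0.67 to 0.49) for Akr7a3 and 0.03 (-0.25 to 0.31) for Gstm1. Sult2a1 was -1.14 with phenobarbital and 0.23 with PCN (-1.37; adjusted p = 2.6e-10). Vdr was -2.60 and -0.77 (-1.83; adjusted p = 0.00039), and Cyp2e1 -0.58 and 0.06 (-0.64; adjusted p = 0.016). Cyp1a2 was lower with PCN, at -0.87 against -0.31 (0.56; adjusted p = 0.0061). With the arrays of the 2 groups alone, 35 probe sets differed in place of 269: Grm5, Cyp2b15, Slco1a4 and Cyp3a18 passed again, while Slc6a9, Ddc, Abcc3, Gstt1, Sult2a1, Vdr, Cyp2e1 and Cyp1a2 had adjusted p of 0.066 to 0.20. With median scaling Cyp1a2 and Cyp2e1 had 0.063 and 0.25, and without rat 4014 Cyp2e1 had 0.10.

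**Figure D5:**
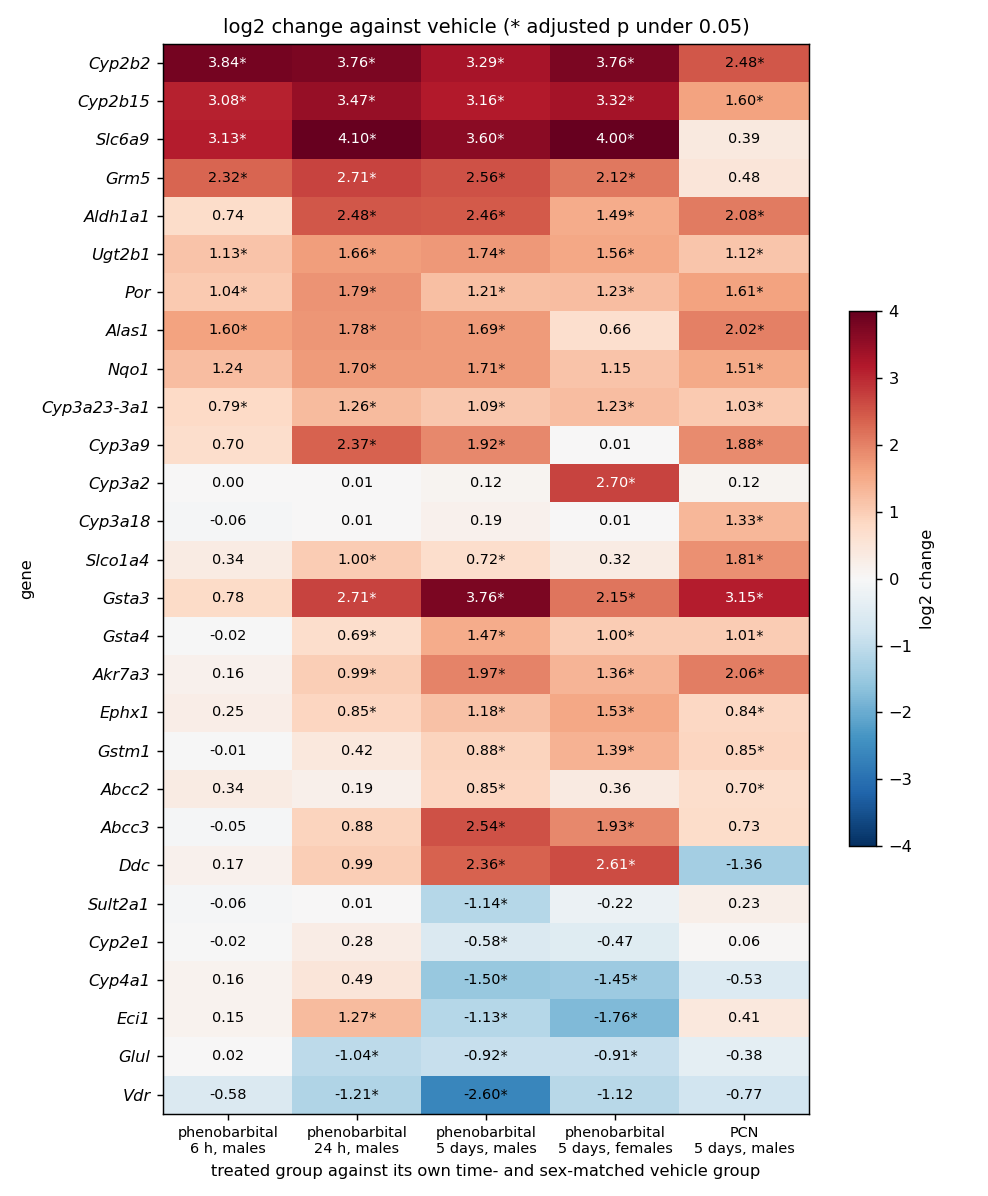
Log2 change of 28 genes against the vehicle group of the same time and sex, printed in each cell and coloured from -4 (blue) to 4 (red), with a star where the adjusted p was under 0.05; each column has 5 treated and 5 vehicle rats, and the male 5-day columns share their vehicle rats. Cyp2b2 and Slc6a9 are red from 6 h on, Abcc3 and Sult2a1 change at 5 days, and Slc6a9, Grm5 and Ddc stay without a star under PCN.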

How the data were processed

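Biotin-labelled cRNA from total liver RNA was hybridised to one-colour arrays, 1 per rat, and the authors deposited a linear intensity per probe set that can be negative. The step that made this intensity is not given in the sources used here. The arrays differed in overall level, so those of the study (89, leaving out rat 1003) were quantile normalised together. Negative values were replaced by 0 before 16 was added and the log2 computed.

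A linear model with a mean for each of 18 groups was used, from limma (version 3.58.1, under R 4.3.3), followed by eBayes moderation. The p-values were two-sided and adjusted by Benjamini-Hochberg over the 8740 probe sets left without 59 controls. The threshold was 0.05. Intervals are 95%. The p-values weigh a difference against the spread between rats within groups, pooled over the 18 groups for each probe set. An SE can thus be smaller or larger than the 10 rats alone would give. For Sult2a1 the SDs were 0.35 in vehicle and 0.59 in phenobarbital rats, with an SE of 0.15. For Cyp3a2 they were 0.17 and 0.14, with an SE of 0.34. The number of arrays limits the precision. Gene symbols come from the platform annotation: 7018 probe sets have 1 symbol, 308 several and 1473 none. A gene was read from its brightest single-symbol probe set over the 10 arrays.

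Named are 31 key genes, of which 27 had such a probe set (not Gsta2, Ugt1a6, Nr1i3 and Nr1i2), the 12 largest rises, the 12 largest falls, and up to 5 members per list and direction. The groups, key genes and 37 lists were chosen with earlier results of these data known. The alternatives were the array of rat 1003 put back, the groups compared fitted alone, pseudocounts of 1 and 64, median scaling, the dimmest 33.3% of probe sets left out, trended robust variances, each array left out and, for lists, averaging all probe sets of a gene.

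On simulated data for phenobarbital against vehicle over 8740 probe sets, with 50 changed at each size, the calls recovered 22 of those changed by 0.5 in log2, 39 of those changed by 1, 49 of those changed by 2 and all 50 changed by 3. Other software was matplotlib 3.10.9, pandas 2.3.3 and numpy 2.4.6 under Python 3.11.15.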

Additional observations from a re-analysis of the deposited data

Results flagged for a closer look

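In a group of 5 rats, 1 rat lay apart from the others by more than 0.71 of the group's range in 14 of 188 groups of named genes. For 5 independent normal values chance flags about 1 group in 20. That rate does not hold at the floor, where 1 rat alone above it is always flagged, as for Slc6a9, Iqsec1 and Kcnj11. In the vehicle group rat 1012 was the lowest for Cyp3a2 at 11.21 against 11.57 to 11.61 in the others. Rat 1013 was alone above the floor for Slc6a9 at 5.04, and rat 1015 was the highest for Grm5 at 4.51. Rat 1014 was the highest for Kng2 at 11.58 against 11.21 to 11.32.

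In the phenobarbital group rat 4014 was the lowest for Cpt1a at 7.72 against 10.25 to 10.83, for Decr1 at 9.16 against 9.88 to 10.09, and for Bin1 at 4.00 against 5.93 to 6.64. Rat 4012 was the lowest for Gstt1 at 6.99 and for Epcam at 6.46, and alone above the floor for Kcnj11 at 5.98. Rat 4013 was alone above the floor for Iqsec1 at 4.63 and the lowest for Ccng1 at 5.63. Rat 4011 was the lowest for Baat at 10.45 against 10.99 to 11.16 and the highest for Stmn1 at 7.92 against 7.20 to 7.32.

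The effect of phenobarbital differed between 5 days and 24 h in males, by the interaction test, for Abcc3 (1.66), Sult2a1 (-1.15), Cyp4a1 (-1.99), Eci1 (-2.40) and Decr1 (-0.87). It differed between females and males at 5 days for Cyp3a2 (2.58) and Sult2a1 (0.92). Each of these values is the difference of 2 log2 changes.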

How the results depend on the processing

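Phenobarbital against vehicle changed 429 probe sets in males. With the array of rat 1003 the count was 283, and with the 10 arrays alone 117, of which 102 were among the 429. Phenobarbital against PCN gave 269, then 173 and 35 under those settings. The effect at 5 days against 24 h gave 19, then 7 and 0, and the effect in females against males 9, then 5 and 0, with 4 under median scaling. Where the count was 0 in limma, 536 and 517 of 8740 probe sets had an unadjusted p under 0.05. Chance alone gives a share of about 0.05 at that threshold, so these counts are not read as changes. Leaving out 1 array at a time gave 313 to 531, 190 to 292, 3 to 37 and 5 to 18 in the same order. The lowest counts came without rat 4011, rat 4014, rat 4014 and rats 1015, 1513 or 1514, and the highest without rats 4012, 4013, 1011 and 1011. The other settings stayed within 1.5 times of each main count. For the 94 named genes, 1401 of 1596 values under the alternatives kept their side of the threshold and 195 lost the call. No gene that passed changed direction. Genes short of the threshold could change sign, as Cyp7a1 did, which ranged from -0.52 to 0.69.

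Median scaling moved the share of higher calls from 52.2% to 56.7%. No paired analysis was possible because each rat number occurs in 1 group. Genes near the floor have no measured size below it, and 378 of the 4736 genes were at or below 0 on all 10 arrays.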
